A study of Mus musculus with 9 samples.

Results

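The mitochondrial genome encodes its own small set of transcripts, and 37 of the 25781 genes in the liver expression table belong to it. They were taken as all entries whose symbol starts with mt-, and they comprise 13 mRNAs, 2 rRNAs (mt-Rnr1 and mt-Rnr2) and 22 tRNAs. The study measured liver RNA of Swiss mice aged 10 to 12 weeks in 9 libraries, 3 in each of 3 groups. The selenite group received β-CYP at 40 mg/kg plus 50 µg/kg of Na2SeO3 (sodium selenite), the β-CYP group received β-CYP alone at 40 mg/kg, and the labels name no agent for the control group. The design text calls them the repair, liver injury and control groups, and the labels do not spell out what β-CYP is. Nothing in the labels ties each library to an animal of its own, so the p-values describe the spread among libraries, part or all of which may be technical.

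Mitochondrial DNA is a small circle that is copied into long RNAs from both strands, and these are cut, largely at the tRNAs that punctuate them, into rRNAs, tRNAs and mRNAs. The mRNAs encode subunits of 4 of the complexes of oxidative phosphorylation: complex I (the NADH dehydrogenase subunits, mt-Nd genes), complex III (cytochrome b, mt-Cytb), complex IV (the cytochrome c oxidase subunits, mt-Co genes) and complex V (ATP synthase, mt-Atp6 and mt-Atp8). All other subunits of these complexes, the RNA polymerase and the RNA-processing enzymes are encoded in the nucleus and imported. The hepatocyte, the main cell of the liver, is rich in mitochondria.

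Values are given as scaled counts, which are the reads recovered from the deposited log2 values, divided by the library factor the authors had applied. Log2 changes are on the scale of log2(scaled count + 1), which understates the change of genes with few reads. Libraries held 28630269 to 36029560 reads, and within each group the coefficient of variation of the mitochondrial mRNAs was 0.272% to 6.74%. Hepatocyte markers (17 of 18 in the table, none at 0 in all libraries) took 16.9% to 17.0% of reads in selenite, 17.0% to 17.4% in β-CYP and 12.8% to 14.3% in control. Gene by gene they moved in both directions (limma, adjusted p under 0.05): 8 of the 17 rose and 3 fell in β-CYP against control (median log2 change 0.11), 3 rose and 11 fell in selenite against β-CYP (−0.22), and 6 rose and 9 fell in selenite against control (−0.13). Other cell types also moved with the groups. Neutrophil markers (12 of 12 in the table) summed to 943 to 1090 reads in selenite, 594 to 679 in β-CYP and 184 to 235 in control. Muscle markers (15 of 15) summed to 1222 to 1278, 51 to 70 and 39 to 57 reads in the same order of groups, and pancreatic acinar markers (15 of 15) to 45288 to 46603, 1157 to 1259 and 977 to 1075. The part of these cell types in the results was not tested, and in whole liver fewer cells of a type and less RNA per cell cannot be told apart. Control replicate 2 stood apart in ribosomal and small RNA, which took 5.12% of its reads against 0.143% and 0.154% in the other control libraries. This RNA took 0.0836% to 0.0917% of reads in selenite and 0.199% to 0.226% in β-CYP.

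Some mitochondrial genes have near-identical copies in the nuclear genome, which bears on every count that follows. In the GENCODE M21 annotation (GRCm38), 7 annotated copies with an identity of 99.71% or more lie next to each other on chromosome 1, on 1 strand, within 4.66 kb, in the order of the mitochondrial genes they match: Gm29216 (mt-Co1), Gm28661 (mt-Co2), Gm10925 (mt-Atp6), Gm28437 (mt-Co3), Gm28438 (mt-Nd3), Gm10222 (mt-Nd4l) and Gm28439 (mt-Nd4). Gm10925 matched mt-Atp6 at 100% over 678 of 681 bases. The first 60 bases of both transcripts (GENCODE M21) are shown because they are identical, and the end of mt-Atp8 is shown because the capitals in it are bases that mt-Atp8 shares with the start of mt-Atp6.
mt-Atp6: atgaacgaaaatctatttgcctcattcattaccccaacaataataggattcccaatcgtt
Gm10925: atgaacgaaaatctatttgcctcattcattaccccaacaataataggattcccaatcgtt
mt-Atp8: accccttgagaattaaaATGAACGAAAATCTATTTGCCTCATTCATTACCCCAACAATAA

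Older, diverged copies can be told from the mitochondrial gene, as in bases 445 to 504 of mt-Co2, where Gm28661 on chromosome 1 is identical and Gm13341 on chromosome 2 (95.9% identical over the gene) differs at the bases in capitals.
mt-Co2: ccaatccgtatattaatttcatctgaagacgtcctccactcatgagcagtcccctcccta
Gm28661: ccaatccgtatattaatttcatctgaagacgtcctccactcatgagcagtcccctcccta
Gm13341: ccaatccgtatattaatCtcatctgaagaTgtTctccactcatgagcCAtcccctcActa

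For 4 of the 7 near-identical copies, reads nearly equalled those of the mitochondrial gene. Reads of Gm28661 were 1.0001 to 1.0007 times those of mt-Co2 over the 9 libraries, and the ratio was between 0.994 and 1.02 for the copies of mt-Co3, mt-Nd3 and mt-Nd4l. The copies of mt-Co1 and mt-Nd4, which match 31.3% and 63.6% of the length of their genes, held fewer. Reads of Gm29216 were 0.203 to 0.207 times those of mt-Co1 in selenite, 0.222 to 0.230 times in β-CYP and 0.209 to 0.212 times in control. For Gm28439 over mt-Nd4 the ratio was 0.331 to 0.342 in selenite, 0.315 to 0.319 in β-CYP and 0.339 to 0.341 in control, and Gm10925 is described with mt-Atp6. The diverged Gm13341 held 1218 to 1559 reads in selenite, 1290 to 1436 in β-CYP and 1553 to 1931 in control, where Gm28661 held 116894 to 118767, 106090 to 119096 and 124825 to 143991. The sources used here do not say how reads that match several places were counted, so values of the 7 mitochondrial mRNAs with a near-identical copy are uncertain for the single gene. The other 6 mRNAs, mt-Atp8, mt-Cytb, mt-Nd1, mt-Nd2, mt-Nd5 and mt-Nd6, had no such annotated copy in the table. Only annotated transcripts were searched, so copies without an annotation would be missed. This bears on mt-Atp8, whose gene lies between mt-Co2 and mt-Atp6, since the copies of those genes are neighbours on chromosome 1.

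Mitochondrial mRNAs took a smaller part of the liver's reads in both treated groups. Their share was 6.60%, 6.71% and 6.81% in the selenite libraries, 5.58%, 5.68% and 5.65% in the β-CYP libraries and 7.94%, 7.37% and 8.05% in the control libraries, and no 2 groups overlapped. Means were 6.70% ± 0.107 in selenite, 5.64% ± 0.0540 in β-CYP and 7.79% ± 0.368 in control (SD, n = 3 each). An exact permutation test over the 3 groups gave p = 0.00357, the smallest this design can give, and 0.0214 after Benjamini-Hochberg adjustment over the 12 share tests. Each pair of groups alone gave p = 0.10 in a 2-sided exact permutation test (adjusted 0.109), which is the smallest exact p that 3 libraries against 3 allow. Without selenite replicate 1 the adjusted permutation p over the 3 groups was 0.0643.

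**Figure D1:**
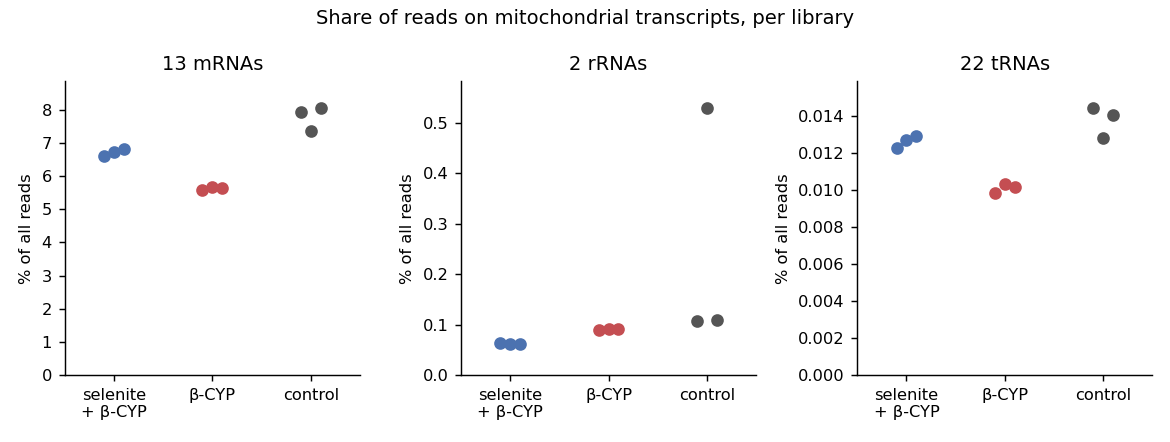
Share of all reads, in percent, on the 13 mitochondrial mRNAs, the 2 rRNAs and the 22 tRNAs, with 1 point for each of the 3 libraries of a group. For the mRNAs the selenite libraries lie between 6.60% and 6.81%, the β-CYP libraries between 5.58% and 5.68% and the control libraries between 7.37% and 8.05%, and for the rRNAs 1 control library stands at 0.529%.

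The comparison of β-CYP with control asks how the injury model changed these transcripts. Of the 13 mRNAs, 12 fell in β-CYP and none rose, with a median log2 change of −0.39, against −0.0013 for all 20145 genes tested (limma, adjusted p under 0.05). Over all genes, 8.58% were lower and 7.72% higher. All 13 mRNAs were lower in every β-CYP library than in any control library, as were 16.2% of all genes tested.

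Among the complex I subunits, mt-Nd4l fell furthest. It had 20045, 20749 and 21044 scaled counts in the β-CYP libraries, against 31955, 33362 and 32516 in the control libraries, a log2 change of −0.66 ± 0.028 (SE, limma adjusted p = 2.2e-07). Then came mt-Nd4 (−0.48 ± 0.022) and mt-Nd2 (−0.45 ± 0.021), followed by mt-Nd3 (−0.35), mt-Nd5 (−0.29) and mt-Nd1 (−0.24). At 37814, 37915 and 38020 scaled counts in β-CYP, against 38673, 40538 and 41624 in control, mt-Nd6 differed least (log2 change −0.09 ± 0.027, limma adjusted p = 0.0628). The β-CYP libraries were below every control library for mt-Nd6 too, although the gene missed the threshold. Without control replicate 1 it passed (−0.12, limma adjusted p = 0.0132), and with equal totals over nuclear genes it passed too. It is the only mRNA of the set transcribed from the opposite strand to the other 12. No strand setting is named for the counting, so reads of mt-Nd6 and of RNA from the other strand cannot be told apart.

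In complex III, mt-Cytb had 239800, 240036 and 238314 scaled counts in β-CYP, against 331747, 346589 and 343269 in control, and so fell to 70.3% of the control mean (log2 change −0.51 ± 0.020). The 3 complex IV mRNAs moved by similar amounts. The catalytic subunit mt-Co1, the most abundant mitochondrial mRNA, had 708604, 727215 and 716900 in β-CYP and 917552, 960598 and 951400 in control (−0.39 ± 0.020), while mt-Co2 and mt-Co3 changed by −0.36 and −0.37. Quantile normalization, which gives equal ranks equal values, turned the mt-Co1 difference to 0.20 (limma adjusted p = 0.381). In complex V, mt-Atp8, a small membrane subunit, had 40184, 41929 and 42281 in β-CYP, against 55460, 58661 and 58469 in control (−0.47 ± 0.033).

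**Figure D2:**
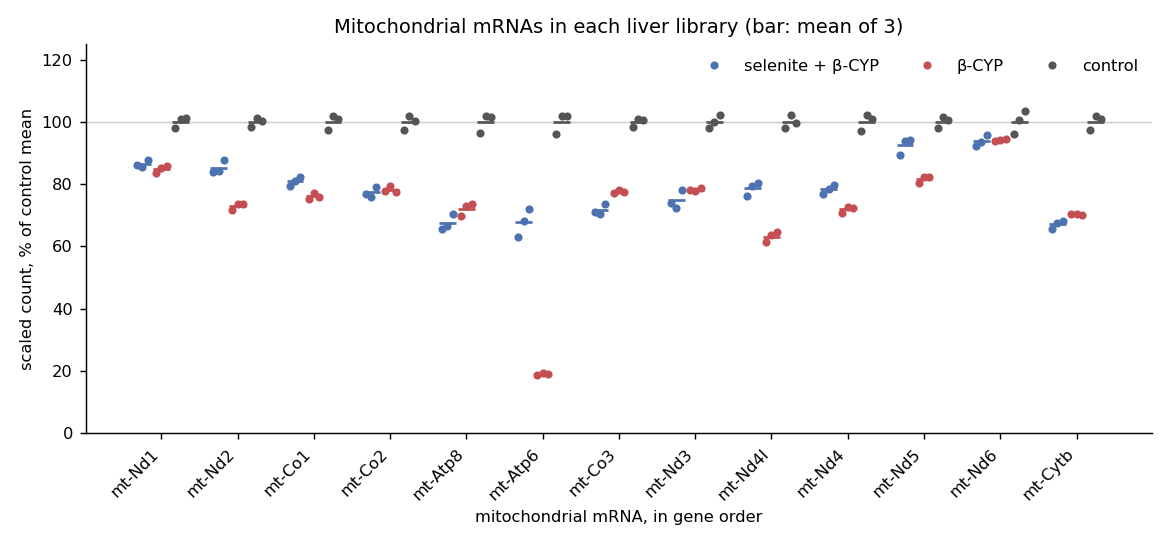
Scaled counts of the 13 mitochondrial mRNAs in gene order, as percent of the control mean, with 1 point per library and a bar at the mean of 3. In β-CYP, mt-Atp6 stands at 19.0% of the control mean, while the other 12 mRNAs lie between 63.2% and 94.1%. In selenite all 13 lie between 67.1% and 93.8%.

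The largest difference in the set was that of mt-Atp6, the proton channel subunit of ATP synthase. It had 33820, 34891 and 34050 scaled counts in the β-CYP libraries, against 173161, 183256 and 183544 in the control libraries. The β-CYP libraries thus stood at 19.0% of the control mean, a log2 change of −2.39 ± 0.044 (limma adjusted p = 5.5e-10). Its nuclear copy Gm10925, identical to it over all but the last 3 bases, did not show this size of difference: 141088, 143695 and 142510 in β-CYP against 187294, 195277 and 195465 in control, a log2 change of −0.44 ± 0.024.

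Reads of Gm10925 were 1.171, 1.083 and 1.075 times those of mt-Atp6 in the selenite libraries, 4.17, 4.12 and 4.19 times in the β-CYP libraries and 1.082, 1.066 and 1.065 times in the control libraries. The β-CYP libraries alone thus stood far from equal reads on both genes. With the reads of both genes added, the log2 change of mt-Atp6 in β-CYP was −1.08 ± 0.032. Any reads that were counted on both genes would enter this sum more than once. The neighbouring genes did not share the size of the mt-Atp6 fall, with mt-Atp8 at −0.47 and mt-Co3 at −0.37. The last 43 bases of mt-Atp8 are also the start of mt-Atp6. Counts are per annotated gene, so they do not tell whether genes that overlap lie on 1 RNA. For the next gene, mt-Co3, reads of its copy Gm28437 were 1.0004 to 1.0005 times those of the gene in selenite, 0.9991 to 0.9992 times in β-CYP and 1.0003 to 1.0004 times in control. Whether the mt-Atp6 value reflects its RNA or the assignment of reads between identical sequences was not tested.

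**Figure D3:**
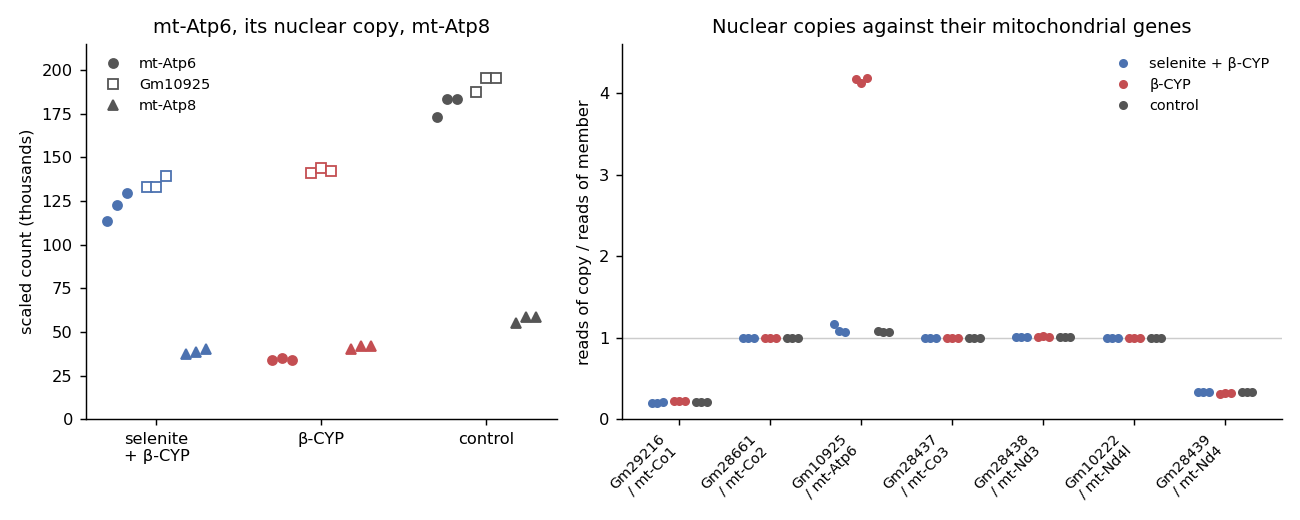
Left, scaled counts of mt-Atp6, of its nuclear copy Gm10925 and of the overlapping gene mt-Atp8, 1 point per library. Right, reads of each near-identical nuclear copy divided by reads of its mitochondrial gene. The β-CYP ratios for Gm10925 over mt-Atp6, 4.12 to 4.19, stand apart from the ratios of 1.06 to 1.17 in the other libraries.

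Selenite with β-CYP, set against β-CYP alone, shows which of these transcripts differed when selenite was given. Of the 13 mRNAs, 6 rose, 2 fell and 5 did not pass, with a median log2 change of 0.03, against 0.02 for all genes. Over all genes 11.6% rose and 12.3% fell. The rises were in mt-Atp6 and in subunits of complexes I and IV. For mt-Atp6 the selenite libraries had 113486, 122751 and 129902 scaled counts, against 33820, 34891 and 34050 in β-CYP (log2 change 1.83 ± 0.044, and 0.54 ± 0.032 with the Gm10925 reads added).

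Next came mt-Nd4l, at 24883, 25936 and 26219 in selenite against 20045, 20749 and 21044 in β-CYP (0.32 ± 0.028, limma adjusted p = 2.7e-05). It was followed by mt-Nd2 (0.22 ± 0.021), mt-Nd5 (0.18 ± 0.023), mt-Nd4 (0.12 ± 0.022) and mt-Co1 (0.09 ± 0.020). In each of these 6, all selenite libraries lay above all β-CYP libraries, as for 19.3% of all genes. The falls were small, in mt-Co3 (−0.11 ± 0.020) and mt-Cytb (−0.07 ± 0.020). The mt-Cytb call was lost when any β-CYP library, selenite replicate 1 or 2, or control replicate 3 was left out (limma adjusted p up to 0.106, log2 change −0.08 to −0.05 over the 9 fits that left out 1 library). The changes of mt-Atp8 (−0.09), mt-Nd3 (−0.07), mt-Co2 (−0.01), mt-Nd6 (−0.0047) and mt-Nd1 (0.03) missed the threshold, the first 2 passing without selenite replicate 3 (−0.12 and −0.10).

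These small falls depend on the scaling. With equal library totals 7 mRNAs rose and none fell, with mt-Co3 at 0.01 and mt-Cytb at 0.06, and with equal totals over nuclear genes 10 rose and none fell. Equal totals move the median of all genes to 0.139 in this comparison. Of all 20145 genes, 3238 rose and 1334 fell with equal totals, and 3769 rose and 1444 fell with equal totals over nuclear genes. Without an intensity trend in the model 4 mRNAs passed, all higher.

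Against control, the selenite libraries held less of every mitochondrial mRNA. All 13 fell, with a median log2 change of −0.35, against 0.03 for all genes, of which 14.5% fell and 14.4% rose. All 13 were lower in each selenite library than in any control library, as were 20.4% of all genes. The furthest were mt-Cytb, with 223013, 230239 and 231854 scaled counts in selenite against 331747, 346589 and 343269 in control (−0.58 ± 0.020), mt-Atp8 (−0.57 ± 0.033), mt-Atp6 (−0.56 ± 0.044) and mt-Co3 (−0.48 ± 0.020). The least changed were mt-Nd5, with 144717, 152117 and 152225 in selenite against 158519, 164455 and 162557 in control (−0.11 ± 0.023), and mt-Nd6 (−0.09 ± 0.027, limma adjusted p = 0.0327). With equal library totals 9 of the 13 fell, while mt-Nd5 (0.02) and mt-Nd6 (0.05) changed sign, and with quantile normalization 7 fell and 2 rose. Of all 20145 genes, 1763 fell and 3977 rose with equal totals, and 2860 fell and 2814 rose with quantile normalization. The mt-Nd6 call was also lost without β-CYP replicate 2, selenite replicate 1 or 2, or control replicate 2 or 3 (limma adjusted p up to 0.109, log2 change −0.12 to −0.07 over the 9 fits).

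Per kilobase of transcript, with lengths from GENCODE M21, mt-Co1 was highest in the set, at 494297 ± 8822 scaled counts per kb in selenite, 464449 ± 6035 in β-CYP and 610475 ± 14672 in control (SD, n = 3 each). It made up 23.998% to 24.3% of the summed per-length level of the 13 mRNAs in selenite, 24.8% to 25.05% in β-CYP and 22.9% to 22.98% in control. Next in each group came mt-Cytb, at 199623 ± 4115 per kb in selenite, 209251 ± 816 in β-CYP and 297670 ± 6809 in control, and then mt-Atp8, at 190374 ± 7056, 203259 ± 5504 and 282010 ± 8800 in the same order. In selenite and in β-CYP the mt-Cytb and mt-Atp8 means differed by less than the sum of their SDs. Reads of the nuclear copies are left out of these levels. The copies of mt-Co2, mt-Co3 and mt-Atp6 held about as many reads as the genes, or more, as given above. The order of the mRNAs after mt-Co1 therefore depends on how those reads are counted. Lowest in the set was mt-Nd3, at 22129 ± 924 per kb in selenite, 23145 ± 116 in β-CYP and 29575 ± 605 in control. The level of mt-Atp6 was 179216 ± 12086 per kb in selenite, 50299 ± 828 in β-CYP and 264298 ± 8683 in control, and in β-CYP mt-Nd3 alone stood below it.

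The balance among the mRNAs was measured as the log2 of each mRNA's reads over the geometric mean of all 13. An exact permutation test over the 3 groups gave adjusted p-values of 0.00516 to 0.0321 over the 13 mRNAs, so each differed between groups beyond the spread of the libraries. Because the reference held mt-Atp6, it was also taken without that gene, a choice made after seeing the data. The complex I mRNA mt-Nd6 then lay at −1.27 ± 0.00360 in selenite, −1.21 ± 0.0122 in β-CYP and −1.51 ± 0.0295 in control. Its reads were thus higher relative to the other mRNAs in both treated groups, with the limit on strand given above. Relative mt-Nd4l was −1.83 ± 0.0217 in selenite, −2.09 ± 0.0224 in β-CYP and −1.82 ± 0.0164 in control, and so was low in β-CYP alone. Relative mt-Cytb was lowest in selenite, at 1.33 ± 0.0184, against 1.45 ± 0.0179 in β-CYP and 1.57 ± 0.00420 in control.

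The 2 rRNAs form the core of the mitochondrial ribosome, mt-Rnr1 in its small and mt-Rnr2 in its large subunit. For mt-Rnr1 there were 7990, 7724 and 7611 scaled counts in selenite, 11661, 11991 and 11491 in β-CYP and 13133, 73252 and 13650 in control. For mt-Rnr2 there were 11572, 11230 and 11439 in selenite, 18289, 19002 and 19245 in β-CYP and 21520, 117615 and 22225 in control. No groups overlapped for either rRNA, and the high value in control came from replicate 2, the library with the excess of ribosomal RNA. With that library in, neither rRNA passed between β-CYP and control (log2 changes −1.01 and −1.02, limma adjusted p = 0.263 and 0.252) or between selenite and β-CYP (−0.59 and −0.72). Between selenite and control both fell (−1.60, limma adjusted p = 0.04998, and −1.75, limma adjusted p = 0.0336), calls that were lost when any selenite or β-CYP library was left out (adjusted p up to 0.129).

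Without control replicate 2 all 6 rRNA differences passed in limma. They were then −0.19 and −0.22 for mt-Rnr1 and mt-Rnr2 between β-CYP and control, −0.59 and −0.72 between selenite and β-CYP, and −0.78 and −0.94 between selenite and control. The rRNAs thus stood lowest in selenite, where the share of the mRNAs stood between β-CYP and control. The log2 ratio of rRNA to mRNA reads was −6.68, −6.75 and −6.78 in selenite and −5.96, −5.94 and −5.94 in β-CYP. In control it was −6.20, −3.80 and −6.20. With all 9 libraries this ratio did not pass (exact permutation test over the 3 groups, adjusted p = 0.132). The ribosomal and small RNA described above also took its smallest share of reads in selenite. Its part in the mitochondrial rRNA differences was not tested. Their share of reads was 0.0620% to 0.0644% in selenite, 0.0898% to 0.0928% in β-CYP and 0.108%, 0.529% and 0.110% in control (exact permutation test over 3 groups, adjusted p = 0.0214, which became 0.277 to 0.304 when a selenite or β-CYP library was left out).

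The 22 tRNAs carry amino acids to the mitochondrial ribosome and held few reads, 4061 to 4200 in all in a selenite library, 3162 to 3665 in a β-CYP library and 4036 to 4592 in a control library. Of the 22, 11 had a mean under 50 scaled counts. Whether these reads came from mature tRNAs or from the longer RNAs they are cut from was not tested. In β-CYP 8 of the 22 fell against control and none rose, and the other 14 did not pass (median log2 change −0.37), where 8.58% of all genes fell. The 4 furthest, mt-Ta (−1.18 ± 0.14), mt-Ty (−1.13 ± 0.11), mt-Tn (−1.08 ± 0.098) and mt-Tc (−1.03 ± 0.11), carry alanine, tyrosine, asparagine and cysteine. They lie in 1 cluster between mt-Nd2 and mt-Co1 on the strand opposite to those mRNAs. Their genes are shown with the anticodon in capitals.
mt-Ta: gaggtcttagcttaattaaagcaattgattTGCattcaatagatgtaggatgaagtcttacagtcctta
mt-Tn: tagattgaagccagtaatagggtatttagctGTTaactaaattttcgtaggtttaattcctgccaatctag
mt-Tc: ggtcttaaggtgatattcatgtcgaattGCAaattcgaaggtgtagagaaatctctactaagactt
mt-Ty: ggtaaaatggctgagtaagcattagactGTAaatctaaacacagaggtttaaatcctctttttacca

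The alanine tRNA mt-Ta had 121, 137 and 135 scaled counts in selenite, 68.6, 75.6 and 90.6 in β-CYP and 181, 184 and 168 in control. For the tyrosine tRNA mt-Ty the values were 201, 218 and 212 in selenite, 133, 163 and 162 in β-CYP and 357, 321 and 327 in control. Both thus stood lowest in β-CYP, between the others in selenite and highest in control, with no overlap of groups. Their neighbour on the mRNA strand, mt-Tw (tryptophan), changed by −0.58 ± 0.13 between β-CYP and control, and mt-Ti (isoleucine), between mt-Nd1 and mt-Nd2, by −0.88 ± 0.097. The remaining calls were mt-Te (glutamate, −0.36 ± 0.048), on the strand of mt-Nd6, and mt-Tm (methionine, −0.38 ± 0.10). The mt-Tm call was lost without β-CYP replicate 1 or 2 or control replicate 1 or 2 (limma adjusted p up to 0.1003, log2 change −0.44 to −0.33 over the 9 fits). The sources used here do not name a strand setting for the counting, so reads of a tRNA and of the RNA from the opposite strand cannot be told apart.

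**Figure D4:**
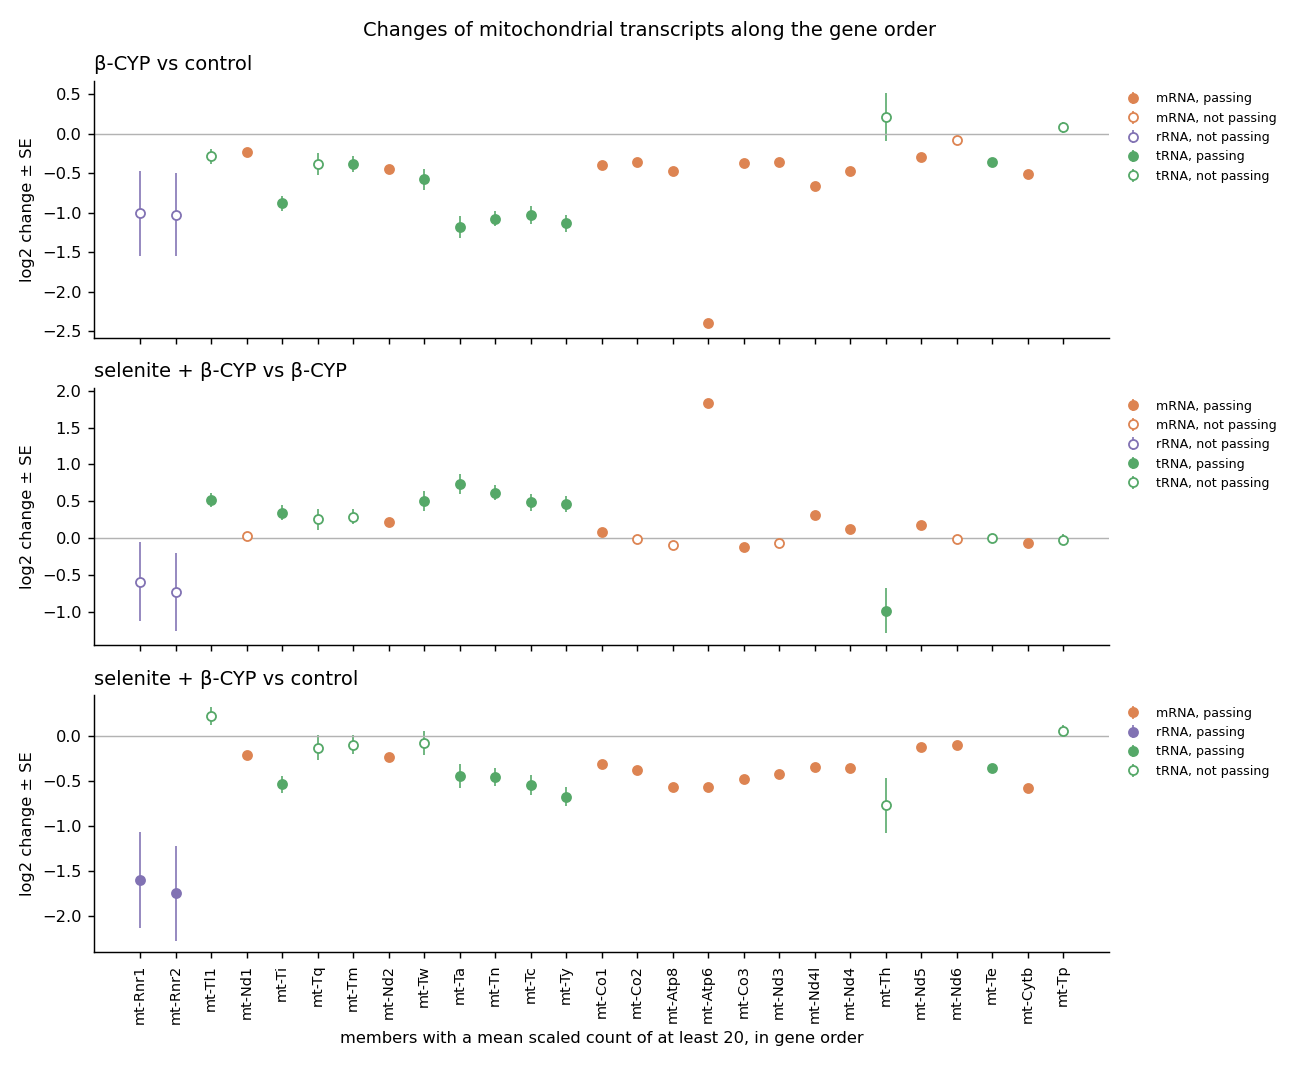
Log2 change with its SE (limma, 3 libraries per group) for the mitochondrial transcripts with a mean of at least 20 scaled counts, placed in the order of their genes, for the 3 comparisons. Filled points passed at an adjusted p under 0.05. In the upper panel the tRNAs from mt-Ta to mt-Ty lie between −1.18 and −1.03 and mt-Atp6 lies at −2.39.

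In selenite 7 tRNAs rose against β-CYP, namely mt-Ta (0.74 ± 0.14), mt-Tn (0.62 ± 0.098), mt-Tl1 (0.52 ± 0.098), mt-Tw (0.50 ± 0.13), mt-Tc (0.49 ± 0.11), mt-Ty (0.46 ± 0.11) and mt-Ti (0.35 ± 0.097), where 11.6% of all genes rose and 12.3% fell. The leucine tRNA mt-Tl1, which follows mt-Rnr2, had 385, 446 and 443 scaled counts in selenite against 295, 307 and 284 in β-CYP. Its neighbour mt-Rnr2 lay lower in selenite than in β-CYP, as given above. The calls of mt-Ti and mt-Tw were lost when single libraries were left out, for mt-Ti any β-CYP library or selenite replicate 1 or 3 (limma adjusted p up to 0.0771, log2 change 0.31 to 0.40 over the 9 fits) and for mt-Tw replicate 2 of either group (limma adjusted p up to 0.0693, log2 change 0.45 to 0.54). The histidine tRNA mt-Th fell by 0.98 ± 0.31 on the log2 scale, with 11.05, 17.5 and 20.1 scaled counts in selenite against 28.1, 32.7 and 36.0 in β-CYP. Its call was lost without any of 7 of the 9 libraries, all but selenite replicate 3 and control replicate 1 (limma adjusted p up to 0.128, log2 change −1.15 to −0.74 over the 9 fits).

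Against control 6 tRNAs fell in selenite, mt-Ty (−0.67 ± 0.11), mt-Tc (−0.54 ± 0.11), mt-Ti (−0.53 ± 0.097), mt-Tn (−0.46 ± 0.098), mt-Ta (−0.44 ± 0.14) and mt-Te (−0.36 ± 0.048), and none rose, where 14.5% of all genes fell and 14.4% rose. Under equal library totals 4 fell and mt-Tl1 rose (0.37, limma adjusted p = 0.0222), while mt-Tn and mt-Ta no longer passed (limma adjusted p = 0.0621 and 0.145). Of all 20145 genes, 1763 fell and 3977 rose under that scaling. The mt-Ta call was lost without any selenite or control library (limma adjusted p up to 0.104, log2 change −0.48 to −0.38 over the 9 fits). The share of reads on all tRNAs was 0.0123%, 0.0127% and 0.0130% in selenite, 0.00987%, 0.0103% and 0.0102% in β-CYP and 0.0145%, 0.0128% and 0.0141% in control (exact permutation test over the 3 groups, adjusted p = 0.0286). Without selenite replicate 1 or 2 that p was 0.0643. The control value within the selenite range is that of replicate 2, whose total held the excess of ribosomal RNA. As a percent of nuclear reads without ribosomal and small RNA, that library stood at 0.0147%, against 0.0132% to 0.0139% in selenite.

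Nuclear genes that encode the partner subunits of the same complexes mostly did not pass between β-CYP and control. The same held for most genes, of which 8.58% fell and 7.72% rose. Between β-CYP and control none of 36 complex I subunits and none of 9 complex III subunits passed, with medians of −0.03 and −0.0044 on the log2 scale. In complex IV 2 of 11 fell, Cox5a (−0.27 ± 0.039) and Cox7b (−0.11 ± 0.028, lost without any β-CYP or control library, limma adjusted p up to 0.0969). In complex V 2 of 15 fell, the catalytic subunits Atp5a1 and Atp5b (−0.07 ± 0.020 and −0.07 ± 0.019), calls also lost without any β-CYP or control library (limma adjusted p up to 0.105).

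Between selenite and β-CYP none of these nuclear subunits rose and 21 of 36 in complex I, 8 of 9 in complex III, 3 of 11 in complex IV and 11 of 15 in complex V fell, with medians of −0.23, −0.22, −0.16 and −0.24, where 12.3% of all genes fell. The furthest in complexes I and V were Ndufv3 (−0.64 ± 0.091), Ndufa6 (−0.41 ± 0.042) and Atp5h (−0.42 ± 0.079), and in complex III Uqcrq (−0.33 ± 0.032). Against control the counts that fell in selenite were 23, 8, 8 and 10 in complexes I, III, IV and V, with Ndufv3 at −0.80 ± 0.091 and Atp5k at −0.33 ± 0.047. Of all genes 14.5% fell in that comparison. With equal library totals the medians stayed negative, from −0.04 to −0.11 between selenite and β-CYP, but only 4, 1, 0 and 1 subunits fell and 1 complex IV subunit rose. The counts against control were then 3, 2, 0 and 1, with medians of −0.06 to −0.12. Of all 20145 genes, 1334 fell and 3238 rose between selenite and β-CYP under equal totals. Against control 1763 fell and 3977 rose in selenite, and 1318 fell and 1245 rose in β-CYP.

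**Figure D5:**
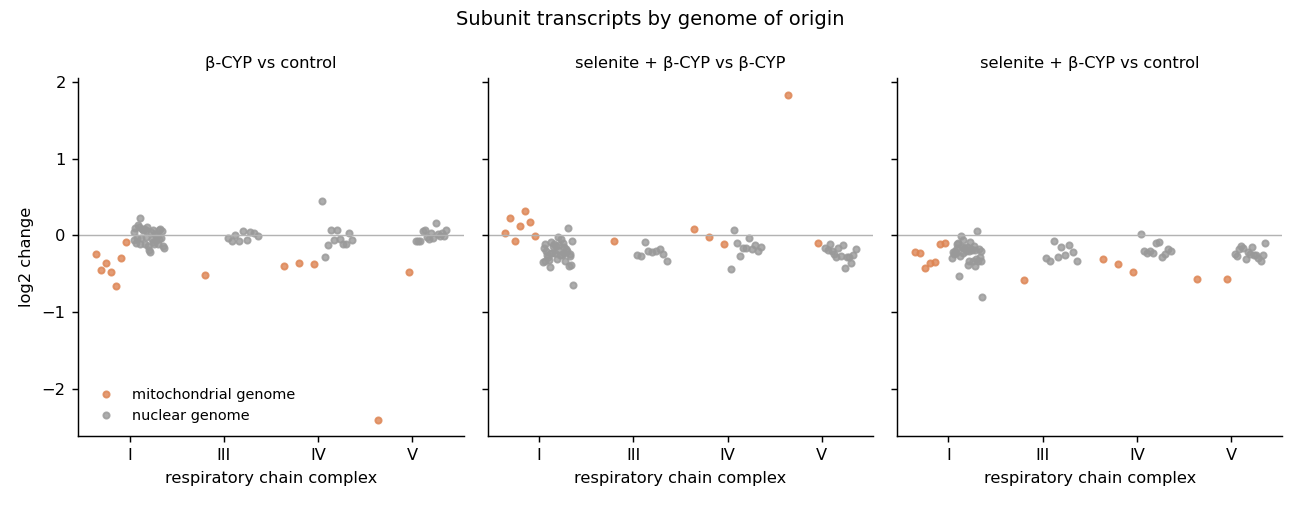
Log2 changes of the subunit transcripts of respiratory chain complexes I, III, IV and V in the 3 comparisons, with the mitochondrial genes left of the nuclear ones and 1 point per gene. In the left panel the mitochondrial points lie between −2.39 and −0.09 while the nuclear medians lie between −0.06 and −0.00082. In the middle panel the nuclear medians lie between −0.24 and −0.16.

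Nuclear regulators of mitochondrial transcription moved in part. The coactivator Ppargc1a (PGC-1α), known as a driver of mitochondrial biogenesis, had 150, 161 and 152 scaled counts in selenite, 236, 169 and 186 in β-CYP and 414, 383 and 423 in control. It fell against control in selenite (log2 change −1.39 ± 0.12) and in β-CYP (−1.05 ± 0.12, limma adjusted p = 2.9e-04), with no overlap of either group with control. Its relative Ppargc1b fell in β-CYP (−1.24 ± 0.22), and the nuclear receptor Esrra, which works with Ppargc1a, fell in both treated groups (−0.53 ± 0.066 in selenite and −0.39 ± 0.066 in β-CYP). The related coactivator Pprc1 rose, at 693, 692 and 720 scaled counts in β-CYP against 368, 309 and 311 in control (1.09 ± 0.11), and by 0.73 ± 0.11 in selenite. Of the 14 biogenesis regulators, 2 rose and 3 fell in β-CYP against control, 3 rose and 2 fell in selenite against β-CYP, and 4 rose and 5 fell in selenite against control. The shares of all genes that rose and fell were 7.72% and 8.58%, 11.6% and 12.3%, and 14.4% and 14.5% in these comparisons. Scaled to equal library totals, the list had 1 rise and 3 falls, 3 rises and 1 fall, and 5 rises and 3 falls. Of all 20145 genes, 1245 rose and 1318 fell, 3238 rose and 1334 fell, and 3977 rose and 1763 fell under that scaling. Among the regulators, Gabpa, a subunit of a factor that drives nuclear genes for mitochondria, rose in selenite (0.40 against β-CYP and 0.38 against control).

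Tfam, which packages mitochondrial DNA and starts transcription, had 951, 1028 and 946 scaled counts in selenite, 1017, 1034 and 1036 in β-CYP and 1171, 1097 and 1032 in control, and passed in no comparison. The mitochondrial RNA polymerase Polrmt had 696, 709 and 626 in selenite, 600, 642 and 645 in β-CYP and 525, 603 and 503 in control. It passed between selenite and control alone (0.32 ± 0.083), a call lost without selenite replicate 1 or 2 or control replicate 1 or 3 (limma adjusted p up to 0.0620, log2 change 0.26 to 0.39 over the 9 fits). Tfb2m, Nrf1 and Slirp passed in no comparison either. Of 21 genes of mitochondrial DNA replication and transcription, none rose and 2 fell in β-CYP against control, the methyltransferase Tfb1m and the helicase Twnk (limma adjusted p = 0.0418 and 0.0330), while 7.72% of all genes rose and 8.58% fell. Neither passed with equal library totals. Under that scaling 3 genes of the list rose in selenite against β-CYP and 7 rose against control, with no falls. Of all 20145 genes, 3238 rose and 1334 fell, and 3977 rose and 1763 fell, in these 2 comparisons. The Tfb1m call was lost in 8 of the 9 fits that left out 1 library (log2 change −0.47 to −0.33), all but that without selenite replicate 1. The Twnk call was lost in 5, those without β-CYP replicate 1 or 2, selenite replicate 3 or control replicate 2 or 3 (−0.26 to −0.18). In selenite against β-CYP 3 rose, Lig3 (0.71 ± 0.11), Twnk (0.42 ± 0.059) and Dna2 (0.41 ± 0.078), which act in replication and repair, and the nuclease Mgme1 fell (−0.34 ± 0.11), a call lost in 8 of the 9 fits that left out 1 library, all but that without selenite replicate 3 (−0.44 to −0.26). In that comparison 11.6% of all genes rose and 12.3% fell. Against control 4 genes of the list rose and 2 fell in selenite, where 14.4% of all genes rose and 14.5% fell.

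Of 41 genes of mitochondrial RNA processing, decay and translation control, 3 rose and 2 fell in β-CYP against control, where 7.72% of all genes rose and 8.58% fell. The rise of the exonuclease Pde12 (0.53 ± 0.086), which trims poly(A) tails in mitochondria, and the fall of Lrpprc (−0.14 ± 0.029), which stabilises mitochondrial mRNAs, held in every fit that left out 1 library. The other calls, rises of Hsd17b10 (0.20) and Mrrf (0.27) and a fall of Fastkd1 (−0.26), were lost in 2, 8 and 5 of these 9 fits. Lrpprc had 4001, 4030 and 3921 scaled counts in selenite, 3552, 3620 and 3645 in β-CYP and 3955, 4017 and 3906 in control, so every β-CYP library lay below those of the other groups. It rose in selenite against β-CYP (0.14 ± 0.029, limma adjusted p = 0.00496). These Lrpprc calls depend on the model: the fall was lost with equal library totals and without an intensity trend (limma adjusted p = 0.148 and 0.132), and the rise without the trend (limma adjusted p = 0.0841). Besides Lrpprc, the RNA-degrading enzyme Pnpt1 rose in selenite against β-CYP (0.39 ± 0.087). In that comparison 5 of the list rose and 4 fell, where 11.6% of all genes rose and 12.3% fell. In selenite against control 3 rose and 7 fell, where 14.4% of all genes rose and 14.5% fell. Under equal library totals these counts were 6 and 1, and 6 and 2, and in β-CYP against control 2 rose and none fell. The counts over all genes under that scaling are given above with the nuclear subunits.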

How the data were processed

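Liver RNA of 9 libraries, 3 per group, was measured by RNA sequencing. RNA was taken up in Trizol and made into libraries with a TruSeq RNA kit, per the labels' protocols, and HISAT, Cufflinks and mm9 are named, with no version or role, per the submitters' processing notes. The authors deposited 1 table of log2 values for 25781 genes, and the values themselves show log2 of reads divided by a library factor, plus 1. Whole reads were recovered for 100% of values in 9 of 9 libraries (tolerance 0.02). The 20145 genes whose scaled count averaged 1 or more were fitted with limma 3.58.1 in R 4.3.3, with 3 group means, an intensity trend and Benjamini-Hochberg adjustment over all tested genes at 0.05, all comparisons sharing libraries. Count models were not used, as the deposited unit is log2. Shares and ratios were tested with exact permutation tests. For the 3 groups these took the between-group sum of squares over 1680 assignments, and for pairs of groups the 2-sided difference of mean shares. Copies in the nuclear genome were found with blastn 2.17.0 against GENCODE M21 transcripts (at least 90% identity over at least 50% of a transcript), and sequences come from the same transcripts. The fit was tested on simulated data. Every mitochondrial gene could be named, as could fixed regulators and, per nuclear list and comparison, the 3 passing genes with the largest rise and the 3 with the largest fall. Members and lists were chosen with earlier results of these data known. Alternatives covered scaling, model, pseudocount, filter, a replicate block and each library left out.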

Additional observations from a re-analysis of the deposited data

How the results depend on the processing

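In β-CYP against control 11 to 13 of the 13 mRNAs fell and none rose under every alternative run, and in selenite against control 7 to 13 fell. Scaling decided the small selenite differences. Against β-CYP, the sign turned to positive with equal totals, equal totals over nuclear genes and quantile normalization for mt-Atp8 (0.032, 0.046 and 0.25), mt-Co2 (0.11, 0.13 and 0.13), mt-Cytb (0.059, 0.073 and 0.071), mt-Nd3 (0.061, 0.075 and 0.13) and mt-Nd6 (0.12, 0.14 and 0.30), with the first pair of these for mt-Co3 (0.015 and 0.029), and for mt-Nd6 also without selenite replicate 1 (−0.0208 to 0.00871 over the 9 fits that left out 1 library). Against control in selenite it turned for mt-Nd5 (0.023 with equal totals, 0.093 with quantile normalization) and mt-Nd6 (0.045 and 0.14), and with quantile normalization for mt-Co1 (0.20), mt-Nd1 (0.057) and mt-Nd4l (0.042). In β-CYP against control quantile normalization turned mt-Co1 (0.20), Atp5a1 (0.022) and Atp5b (0.037). The cause was not tested. Equal totals gave 3238 higher and 1334 lower genes in selenite against β-CYP (2337 and 2468 otherwise) and 3977 and 1763 against control (2908 and 2915 otherwise). Over nuclear genes alone these splits were 3769 and 1444, and 3712 and 2150, and in β-CYP against control 1147 and 2006 (1556 and 1729 otherwise).

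Without an intensity trend 4 mRNAs passed in selenite against β-CYP. Leaving out 1 library gave adjusted permutation p-values of 0.0143 to 0.0643 for the mRNA share, 0.0143 to 0.304 for the rRNA share and 0.0143 to 0.0643 for the tRNA share. It gave 2668 to 3227 genes called in β-CYP against control, 3989 to 4749 in selenite against β-CYP and 4994 to 5698 in selenite against control, and 12 to 13, 7 to 10 and 12 to 13 mRNAs. The balance differed for 13 of 13 mRNAs under every alternative run. With near-identical copies summed, an alternative chosen after seeing the data, 12, 7 and 13 mRNAs passed in the 3 comparisons, with mt-Co1 no longer passing in selenite against β-CYP (limma adjusted p = 0.0512).

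The replicate numbers gave no sign of pairing: correlations of same-numbered deviations were −0.0106 to 0.0325, and none of 9 exceeded 0.1. Low correlations over all genes cannot exclude a pairing. With the replicate block 2956, 4481 and 5506 genes and 13, 9 and 13 mRNAs passed in β-CYP against control, selenite against β-CYP and selenite against control. Low counts limit the tRNA results, as 10 of the tRNAs had a mean under 20 scaled counts.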

Other observations

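Of 25 genes of mitochondrial quality control and stress, 3 rose and 3 fell in β-CYP against control, 5 rose and 8 fell in selenite against β-CYP, and 5 rose and 8 fell in selenite against control. Over all genes 7.72% rose and 8.58% fell, 11.6% rose and 12.3% fell, and 14.4% rose and 14.5% fell in the same comparisons. Clpx, the unfoldase of a matrix protease, had 4800, 4423 and 4566 scaled counts in selenite, 5518, 5927 and 5867 in β-CYP and 3268, 3135 and 3157 in control, and so stood above control in both treated groups (limma log2 change 0.53 in selenite and 0.86 in β-CYP). The mitophagy receptor Bnip3 rose too, by 0.75 in selenite and 0.40 in β-CYP against control. The co-chaperonin Hspe1 rose in selenite against β-CYP (0.59) and against control (0.64). The ubiquitin ligase Park2 (parkin) had 35.9, 39.7 and 53.7 scaled counts in selenite, 110, 95.0 and 91.5 in β-CYP and 181, 148 and 205 in control. It fell in selenite against control (−2.03) and against β-CYP (−1.20). Park2 also fell in β-CYP against control (−0.83, limma adjusted p = 0.0157), a call lost in 4 of the 9 fits that left out 1 library. With equal library totals 2 of the list rose and 1 fell in β-CYP against control, 5 rose and 2 fell in selenite against β-CYP, and 6 rose and 2 fell against control. Of all 20145 genes, 1245 rose and 1318 fell, 3238 rose and 1334 fell, and 3977 rose and 1763 fell under that scaling.

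The serine tRNA mt-Ts2 was uneven within every group, with 0.921, 0.922 and 8.62 scaled counts in selenite, 1.04, 15.3 and 17.6 in β-CYP and 18.2, 1.01 and 1.14 in control.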
